A study of Mus musculus with 15 samples.

Results

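Axon guidance ligands and receptors are described here for the first day of differentiation of neural stem cells from the subventricular zone of adult mice. The members were chosen by symbol, as genes of the semaphorin, plexin, neuropilin, ephrin, Eph receptor, netrin, UNC5, Slit and Robo families named by the array's annotation, and 58 of its 12393 named genes met the rule. Unc50, a Golgi protein that shares only its first letters with the UNC5 receptors, was left out by name. By family the array held 17 semaphorins, 7 plexins, 2 neuropilins, 8 ephrins, 11 Eph receptors, 5 netrins, 2 UNC5 receptors, 3 Slits and 3 Robo receptors.

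These families tell a growing axon or a migrating cell where to go. Semaphorins are secreted or membrane-bound ligands that are read by plexins, and most of the secreted ones need neuropilins as co-receptors. Ephrins are bound to the membrane and are read by Eph receptor tyrosine kinases on the neighbouring cell, and ephrins signal back into their own cell as well. Netrins such as Ntn1 attract through Dcc and repel through UNC5 receptors, while Slits repel through Robo receptors. In the adult subventricular zone and in the oligodendrocyte lineage the same cues are known to steer migrating neuroblasts and precursor cells.

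The arrays held 3 groups of 5 samples. Cells came from female C57Bl6/J mice aged 6 months, were grown as neurospheres, passaged repeatedly to enrich for sphere-forming cells, and used at passages 5 to 7. Undifferentiated cells were kept with growth factors (bFGF and EGF), and the other groups were taken 12 h and 24 h after the growth factors were withdrawn on poly-D-lysine with 5% serum. Withdrawal, serum and substrate changed together and cannot be told apart. Whether the 5 samples of a group were separate cultures or animals is not in the labels. The spread that the p-values rest on may therefore be technical, and the precision is limited to that of 5 arrays a group.

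The labels conflict over the arrays: 13 of 15 samples carry 1 code in the title and another in the name of the array file, and the file's code would put 8 samples in another group. Groups were taken from the titles. Nes, the stem cell filament gene, ran from 5.99 to 6.68 on the log2 scale in undifferentiated cells, from 4.30 to 6.46 at 12 h and from 3.47 to 4.88 at 24 h. Mbp, the myelin gene, ran from 4.43 to 6.56, from 2.37 to 9.64 and from 7.21 to 10.18 in the same order. Of the 11 neural stem and progenitor markers, 3 rose and 3 fell at 24 h, with a median log2 difference of 0.54. Sox2, a stem cell transcription factor, rose by 1.03 ± 0.24 SE (adjusted p = 0.00466), whereas Nes fell by 2.05 ± 0.37 (0.000975) and Egfr, the EGF receptor, by 1.08 ± 0.24 (0.00328). All 11 neural stem and progenitor markers on the array were above the level used for testing, and none of 11 microglial and none of 10 endothelial markers were. The title codes end in 1 of 3 suffixes, called A, B and C here, and each suffix holds arrays of every group. Replicates 3 and 4 of the 12 h group were the closest pair of arrays within any group, with a median absolute log2 difference of 0.0862 over the tested genes, against 0.150 for the next pair. In this pair Nes was at 6.46 and 6.30, inside its undifferentiated range, against 4.86, 5.01 and 4.30 in the other 12 h arrays. Egfr was at 4.71 and 4.66 in the pair, below its undifferentiated range of 5.43 to 5.98. The ratio of 3' to 5' actin signal, which reflects RNA integrity and labelling, averaged 2.78 ± 0.365 at 24 h and 1.95 ± 0.238 in undifferentiated cells (SD, n = 5 per group). By a two-sided exact permutation test this gave p = 0.00794, or 0.0476 after adjustment for 6 tests. At 12 h it averaged 2.36 ± 0.148, which also differed from undifferentiated cells (exact p = 0.0159, adjusted p = 0.0476). With this ratio as a covariate, or with groups taken from the array file codes, limma called 0 of the guidance genes in each comparison. With the file codes it also called 0 of all 7909 tested genes. With the covariate it called 41 of them higher and 18 lower at 12 h, 8 and 5 at 24 h, and 0 and 1 between the times. With the covariate the standard errors were larger. The log2 differences were 2.21 for Unc5c, 1.66 for Plxnb3, 2.49 for Epha5, 1.49 for Sema4g, 1.02 for Sema4a, 0.57 for Sema6c and 0.67 for Efnb3 at 24 h, against 1.99, 2.17, 1.43, 0.94, 0.68, 0.41 and 0.72 without it. For Sema3a they were -0.67 against -0.69 at 24 h and -0.89 against -0.90 between the times, and for Nrp1 0.78 against 0.82 at 12 h. Those of Sema4b (-0.64 against -1.35), Sema4d (0.36 against 0.96), Sema5a (0.30 against 0.68) and Efna4 (-0.063 against -0.56) were more than 1.5 times smaller.

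At 24 h, 9 of the 28 guidance genes that could be tested rose and 3 fell. The largest rises were in the plexin Plxnb3 and the netrin receptor Unc5c, followed by the Eph receptor Epha5, and 5 semaphorins and the ephrin Efnb3 rose as well. The semaphorins Sema4b and Sema3a and the ephrin Efna4 fell. At 12 h the neuropilin Nrp1 rose and no guidance gene fell (1 and 0 of 28, against 3.3% and 4.56% of all tested genes). Without 12 h replicates 3 and 4 these counts were 6 and 1, beside 752 and 1168 of all tested genes. Between 12 h and 24 h, Sema3a fell.

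A gene was tested where its mean over the 15 arrays exceeded 0.512 on the log2 scale, the 40th percentile of the array's probe sets, and it was called at a limma adjusted p under 0.05 over all 7909 tested genes. Ephb6 lay just inside that level at 0.521 and Epha7 just outside at 0.469. At 24 h the members called higher were 32.1% of those tested and the members called lower 10.7%, against 12.7% and 19.4% of all tested genes. At 12 h, 1 of 28 was higher (3.57%) and 0 were lower, against 3.3% and 4.56% of all tested genes. At an unadjusted p under 0.05 there were 5 higher and 0 lower, beside 977 and 1100 of the 7909. Between 24 h and 12 h, 0 members were higher and 1 was lower, against 0.0632% and 0.354% of all tested genes. At an unadjusted p under 0.05 there were 4 and 8 members, beside 369 and 819 of the 7909. The median log2 difference of the tested members was 0.25 at 12 h and 0.12 at 24 h against undifferentiated cells, beside 0.0045 and -0.060 over all tested genes. Both comparisons share the undifferentiated arrays.

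**Figure D1:**
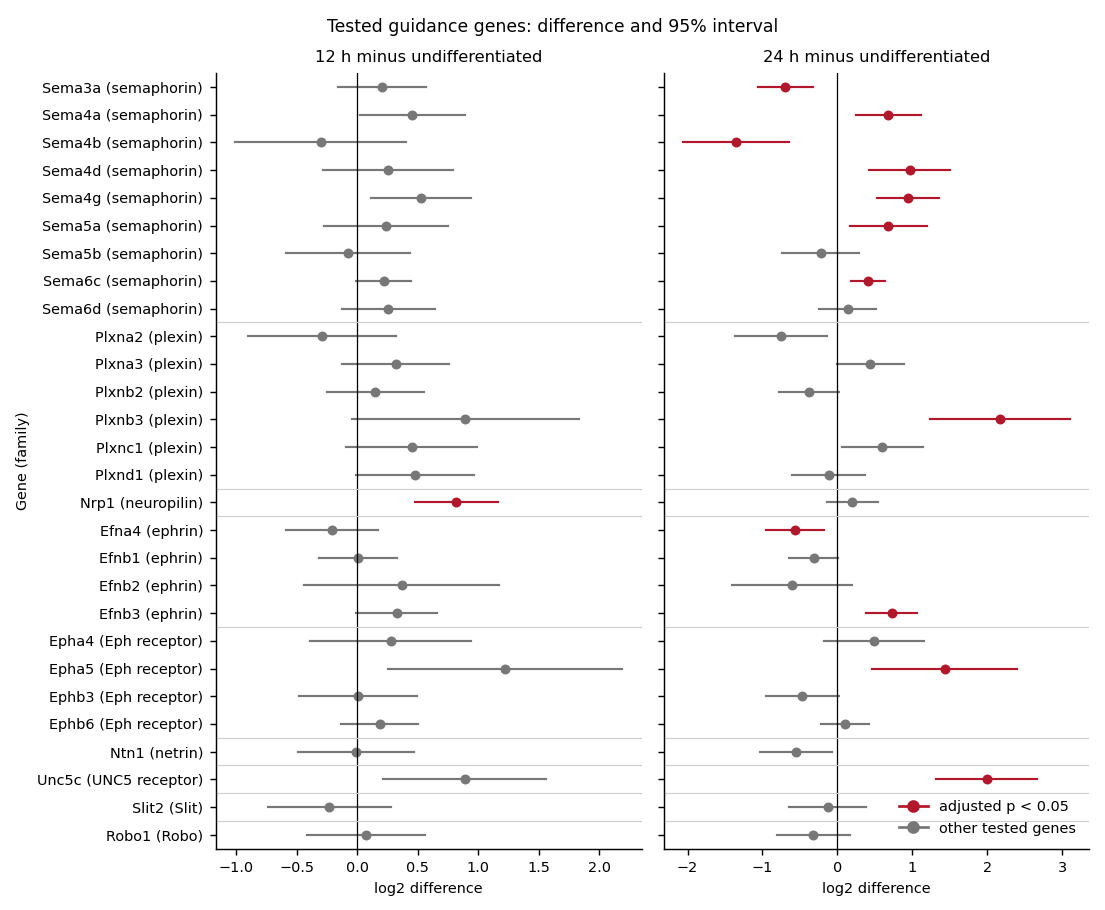
Log2 difference of each tested guidance gene from undifferentiated cells at 12 h (left) and 24 h (right), with points for the limma estimate, bars for its 95% interval and red for adjusted p under 0.05. At 12 h the red point is Nrp1, and at 24 h 9 genes lie to the right of 0 and 3 to the left in red, with Plxnb3 (2.17) and Unc5c (1.99) farthest to the right and Sema4b (-1.35) farthest to the left.

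The sequences before the transcription start are shown for 5 genes that the results turn on: Unc5c, Plxnb3 and Sema4g, which rose at 24 h, Nrp1, which rose at 12 h, and Sema3a, which fell at 24 h. Each is the 250 bases before the start listed by RefSeq, on assembly GRCm38.p6, written 5′ to 3′ on the gene's strand. Capitals mark matches, on either strand, to ACAAAG (the core bound by SOX factors), CAGCTG (an E-box, bound by basic helix-loop-helix factors) and GGGCGG (a GC box, bound by Sp factors).
Unc5c chr3:141465314-141465563 (+ strand): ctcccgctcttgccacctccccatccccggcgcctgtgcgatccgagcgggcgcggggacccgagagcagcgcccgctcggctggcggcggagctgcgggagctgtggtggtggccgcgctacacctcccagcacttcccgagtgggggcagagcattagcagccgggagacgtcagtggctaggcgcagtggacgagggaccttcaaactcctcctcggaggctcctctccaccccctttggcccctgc
Plxnb3 chrX:73756853-73757102 (+ strand): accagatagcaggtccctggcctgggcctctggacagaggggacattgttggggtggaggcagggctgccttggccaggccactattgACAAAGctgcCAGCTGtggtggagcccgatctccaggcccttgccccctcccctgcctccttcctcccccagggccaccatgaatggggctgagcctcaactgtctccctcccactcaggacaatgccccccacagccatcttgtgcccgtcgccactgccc
Sema4g chr19:44989094-44989343 (+ strand): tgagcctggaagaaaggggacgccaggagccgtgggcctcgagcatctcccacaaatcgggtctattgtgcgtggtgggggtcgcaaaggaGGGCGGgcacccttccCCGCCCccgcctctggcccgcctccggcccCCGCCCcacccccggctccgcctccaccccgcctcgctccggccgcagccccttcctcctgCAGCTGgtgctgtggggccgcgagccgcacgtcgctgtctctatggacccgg
Nrp1 chr8:128358823-128359072 (+ strand): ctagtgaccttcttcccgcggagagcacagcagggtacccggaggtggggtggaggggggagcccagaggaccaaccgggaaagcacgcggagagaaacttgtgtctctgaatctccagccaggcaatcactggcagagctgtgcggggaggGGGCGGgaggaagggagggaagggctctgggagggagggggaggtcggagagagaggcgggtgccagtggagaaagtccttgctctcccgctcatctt
Sema3a chr5:13396534-13396783 (+ strand): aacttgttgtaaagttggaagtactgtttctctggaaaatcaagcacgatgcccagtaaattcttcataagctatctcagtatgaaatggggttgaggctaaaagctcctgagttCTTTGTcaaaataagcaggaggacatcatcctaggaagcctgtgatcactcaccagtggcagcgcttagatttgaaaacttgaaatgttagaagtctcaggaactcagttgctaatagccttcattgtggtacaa

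Unc5c, although it had one of the largest rises, has no match to these motifs in its window. The Plxnb3 window holds ACAAAG and CAGCTG, the Sema4g window CAGCTG and 3 GC boxes, the Nrp1 window 1 GC box, and the Sema3a window ACAAAG as its reverse complement CTTTGT. Of 32851 windows of this length, 16.5% hold ACAAAG or CTTTGT, 13.0% hold CAGCTG and 32.7% hold GGGCGG or CCGCCC. Among the 19 windows of the 12 called genes that matched the table, 3, 4 and 11 do, in the same order, and several windows of a gene can overlap. A match is a description of the letters and was not tested as a binding site. G and C made up 71.2% of the Unc5c window and 40.8% of the Sema3a window, beside a median of 52.4% over all windows.

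Among the semaphorins, the ligands of the plexins, 9 of 17 could be tested, and at 24 h 5 rose and 2 fell. Sema4d, a membrane-bound ligand of B-type plexins that is also known from the immune system and from oligodendrocytes, had log2 levels of 0.41, 0.61, 0.88, 0.85 and 0.48 in undifferentiated cells, 0.034, 0.56, 1.04, 1.08 and 1.78 at 12 h, and 1.11, 1.80, 1.54, 2.05 and 1.55 at 24 h. Every 24 h array lay above every undifferentiated array, while the 12 h arrays ran from below the undifferentiated range into that of 24 h. It rose 1.95-fold at 24 h (log2 difference 0.96 ± 0.25 SE, adjusted p = 0.00925). Sema4g, another class 4 member, had levels of 1.45, 1.71, 1.56, 1.15 and 1.17 in undifferentiated cells, 2.08, 2.07, 1.64, 1.76 and 2.14 at 12 h, and 2.78, 2.52, 2.47, 2.36 and 1.61 at 24 h. The lowest 24 h array fell inside the undifferentiated range and the other 4 lay above it. Sema4g rose 1.92-fold at 24 h (0.94 ± 0.20, adjusted p = 0.00246). Its difference at 12 h was 0.53 ± 0.20 (adjusted p = 0.0986, and 0.0422 with the title code suffix as a block).

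Sema4a, a class 4 ligand with roles in T cells and the retina, had levels of 1.26, 1.09, 1.32, 0.72 and 0.77 in undifferentiated cells, 2.19, 1.59, 1.20, 1.11 and 1.34 at 12 h, and 2.14, 1.37, 1.89, 1.63 and 1.52 at 24 h. The 24 h and undifferentiated arrays did not overlap, by a margin of 1.37 against 1.32 at the nearest. It rose 1.60-fold at 24 h (0.68 ± 0.21, adjusted p = 0.0193), and the call was lost without 24 h replicate 1 (0.0526) or undifferentiated replicate 4 (0.0538). Sema6c, a transmembrane ligand, had levels of 0.83, 0.72, 0.79, 0.56 and 0.54 in undifferentiated cells, 1.11, 0.96, 0.83, 0.80 and 0.85 at 12 h, and 1.18, 1.09, 1.25, 1.10 and 0.85 at 24 h. The groups at 24 h and at the start were again separate, over a narrow range. Sema6c rose 1.33-fold at 24 h (0.41 ± 0.11, adjusted p = 0.00921). Sema5a, a transmembrane ligand known to bind Plxnb3, had levels of 1.38, 1.74, 2.29, 1.83 and 1.53 in undifferentiated cells, 2.58, 1.29, 1.81, 1.77 and 2.52 at 12 h, and 2.10, 2.87, 2.30, 2.53 and 2.37 at 24 h. One undifferentiated array, at 2.29, lay among the 24 h arrays. The 1.60-fold rise of Sema5a at 24 h (0.68 ± 0.24, adjusted p = 0.0411) was lost when any of 8 single arrays was left out (adjusted p from 0.0536 to 0.0969).

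Sema3a and Sema4b moved the other way. Sema3a, the classical secreted repellent that acts through Nrp1 and A-type plexins, had log2 levels of 1.96, 1.94, 2.35, 2.54 and 2.56 in undifferentiated cells, 2.41, 2.69, 2.81, 2.51 and 1.95 at 12 h, and 1.76, 1.43, 1.56, 1.63 and 1.49 at 24 h. All 24 h arrays lay below all arrays of both other groups. At 24 h Sema3a was 1.62-fold lower than in undifferentiated cells (-0.69 ± 0.17, adjusted p = 0.00687) and 1.87-fold lower than at 12 h (-0.90 ± 0.17, adjusted p = 0.0378). The second of these calls was lost without any 1 of the 24 h arrays, without 12 h replicate 2, 3 or 4, or without undifferentiated replicate 2 (adjusted p from 0.0535 to 0.133), and also in the fit of those groups alone. Sema4b, a transmembrane class 4 member, had levels of 2.72, 2.91, 2.80, 2.67 and 2.13 in undifferentiated cells, 2.55, 1.67, 3.25, 3.15 and 1.11 at 12 h, and 1.53, 1.04, 1.64, 1.28 and 0.97 at 24 h. At 12 h it was spread from inside the 24 h range to above the undifferentiated range, with replicates 3 and 4 at the top, whereas the 24 h arrays were all below the undifferentiated ones. It fell 2.56-fold at 24 h (-1.35 ± 0.33, adjusted p = 0.00662). Without 12 h replicates 3 and 4 Sema4b was also called lower at 12 h. The other tested semaphorins, Sema5b and Sema6d, had differences of -0.22 ± 0.24 and 0.13 ± 0.18 at 24 h, with 95% intervals from -0.74 to 0.29 and from -0.25 to 0.52.

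**Figure D2:**
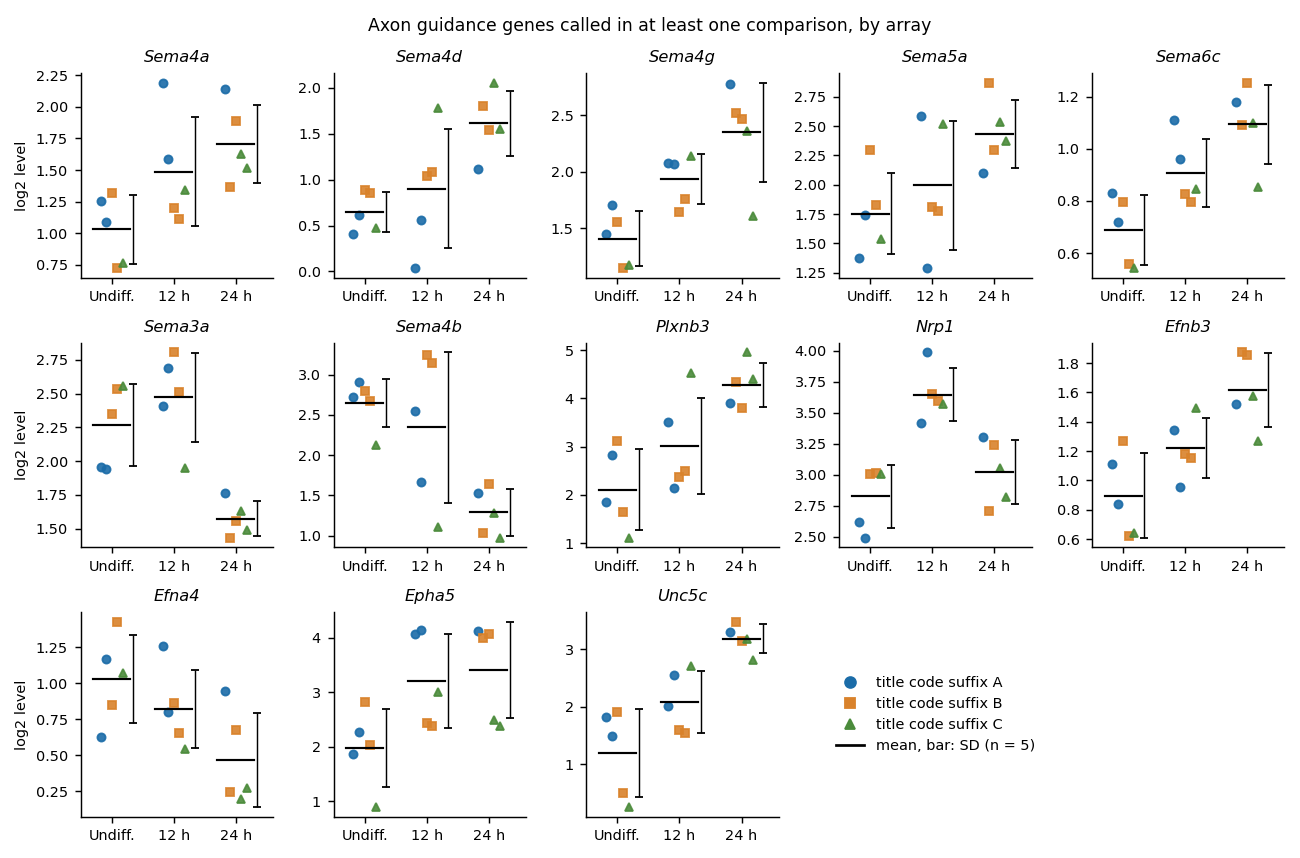
Log2 level of the 13 guidance genes called in at least 1 comparison, by group on the x axis, with a point per array, its shape and colour giving the title code suffix, a line for the mean and a bar for the SD (n = 5). Plxnb3, Unc5c, Sema4a, Sema4d and Sema6c lie higher in every 24 h array than in any undifferentiated array, Sema3a and Sema4b lie lower in every one, and Nrp1 is highest at 12 h. These genes were called on the same arrays. Of the members not shown, Plxnc1, which was not called, lay higher in every 24 h array. Epha2, Efna3, Ntng1 and Sema3c, below the testing level, lay lower in every one. The share of all genes without overlap was not counted.

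Of the receptors for semaphorins, 6 of 7 plexins and 1 of 2 neuropilins could be tested. Plxnb3, a B-type plexin known from studies of oligodendrocytes and their precursors, had log2 levels of 1.85, 2.83, 3.12, 1.65 and 1.11 in undifferentiated cells, 3.51, 2.14, 2.38, 2.49 and 4.52 at 12 h, and 3.91, 4.34, 3.80, 4.96 and 4.39 at 24 h. Every 24 h array lay above every undifferentiated array, and at 12 h replicate 5 was already at the 24 h level while the others were not. It rose 4.50-fold at 24 h (2.17 ± 0.44, adjusted p = 0.00226), the largest difference among the guidance genes. The mean level of 12 tested oligodendrocyte lineage and myelin genes was 4.81 to 5.92 in the 24 h arrays, 3.55 to 5.58 at 12 h and 3.11 to 4.42 in undifferentiated cells, and 9 of these genes rose at 24 h. At 12 h the list's mean was 3.63, 3.55, 4.21, 4.38 and 5.58 in replicates 1 to 5, beside the Plxnb3 levels above. Replicate 5 was highest in both, while replicate 1 was the next highest for Plxnb3 and the next to lowest for the list. The part of these genes in the result was not tested. More cells of a type and more RNA per cell cannot be told apart in such bulk samples.

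Nrp1 is the neuropilin that serves as co-receptor for Sema3a and for Vegfa, and it rose at 12 h. Its levels were 2.62, 2.49, 3.01, 3.01 and 3.01 in undifferentiated cells, 3.42, 3.99, 3.65, 3.60 and 3.57 at 12 h, and 3.30, 2.71, 3.24, 3.05 and 2.82 at 24 h. All 12 h arrays lay above all arrays of both other groups, which overlapped each other. Nrp1 rose 1.77-fold at 12 h (0.82 ± 0.16, adjusted p = 0.00933), and the call was lost without the 4 arrays of suffix C, where the difference was 0.88 (adjusted p = 0.0538). At 24 h it differed from undifferentiated cells by 0.20 ± 0.16 (adjusted p = 0.367) and from 12 h by -0.62 ± 0.16 (adjusted p = 0.0870).

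The other plexins did not pass the test at either time. At 24 h the difference was -0.75 ± 0.29 for Plxna2 (adjusted p = 0.0564), 0.60 ± 0.26 for Plxnc1 (0.0849) and 0.44 ± 0.21 for Plxna3 (0.120). With the title code suffix as a block these 3 passed, at adjusted p of 0.00551, 0.00998 and 0.0107. Plxnb2, a B-type plexin of proliferating neural precursors, ranged from 4.34 to 5.38 at 24 h and from 5.10 to 5.72 in undifferentiated cells, with a difference of -0.38 ± 0.19 (adjusted p = 0.139). Plxnd1, the receptor for Sema3e, differed by -0.12 ± 0.23 at 24 h, with a 95% interval from -0.60 to 0.37, and by 0.48 ± 0.23 at 12 h (adjusted p = 0.199).

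Of the ephrins, 4 of 8 could be tested, and at 24 h 1 rose and 1 fell. Efnb3, a transmembrane B-type ephrin, had log2 levels of 1.11, 0.84, 1.27, 0.62 and 0.64 in undifferentiated cells, 1.34, 0.95, 1.18, 1.15 and 1.49 at 12 h, and 1.52, 1.87, 1.85, 1.57 and 1.27 at 24 h. The groups met at 1.27, the lowest 24 h and the highest undifferentiated array. Efnb3 rose 1.65-fold at 24 h (0.72 ± 0.16, adjusted p = 0.00344). Efna4, an A-type ephrin held by a lipid anchor, had levels of 0.63, 1.17, 0.85, 1.43 and 1.07 in undifferentiated cells, 1.26, 0.80, 0.87, 0.65 and 0.54 at 12 h, and 0.94, 0.24, 0.68, 0.20 and 0.27 at 24 h. At 24 h 3 arrays lay below all undifferentiated arrays and 2 lay among them. Efna4 fell 1.48-fold (-0.56 ± 0.18, adjusted p = 0.0256), and leaving out 24 h replicate 2, 4 or 5 or undifferentiated replicate 2 or 4 ended the call (adjusted p from 0.0565 to 0.0735). Among the others, Efnb2, the ligand that marks arteries and is known in the subventricular niche, differed by -0.61 ± 0.38 at 24 h (adjusted p = 0.236, and 0.0317 with the suffix as a block). Efnb1 differed by -0.32 ± 0.15 (adjusted p = 0.122).

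Of the 11 Eph receptors, 4 could be tested. Epha5, a receptor for A-type ephrins, had levels of 1.87, 2.27, 2.83, 2.02 and 0.88 in undifferentiated cells, 4.07, 4.13, 2.43, 2.37 and 2.99 at 12 h, and 4.12, 3.99, 4.06, 2.49 and 2.38 at 24 h. Both later groups were split, with arrays near 4 and arrays inside or just above the undifferentiated range, and at 24 h the low arrays were those of suffix C. Epha5 rose 2.70-fold at 24 h (1.43 ± 0.46, adjusted p = 0.0252, and 0.00124 with the suffix as a block). Without 24 h replicate 1, 2 or 3 or undifferentiated replicate 5 the adjusted p was 0.0571 to 0.0686. At 12 h the difference was 1.22 ± 0.46 (adjusted p = 0.102, and 0.0208 with the suffix as a block). Epha4, which binds ephrins of both types, differed by 0.49 ± 0.32 at 24 h (adjusted p = 0.246, and 0.0207 with the block). Ephb3, a receptor for B-type ephrins, and Ephb6, which lacks kinase activity, differed by -0.47 ± 0.23 and 0.10 ± 0.15 (adjusted p = 0.131 and 0.655).

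Of the netrins and UNC5 receptors, 1 of 5 and 1 of 2 could be tested, and Unc5c rose at 24 h. Unc5c, a netrin receptor that mediates repulsion, had log2 levels of 1.82, 1.49, 1.91, 0.50 and 0.25 in undifferentiated cells, 2.02, 2.55, 1.60, 1.54 and 2.72 at 12 h, and 3.31, 3.48, 3.14, 3.18 and 2.82 at 24 h. The 24 h arrays lay above all arrays of both other groups. Unc5c rose 3.98-fold at 24 h (1.99 ± 0.32, adjusted p = 0.000529), the smallest adjusted p among the guidance genes. Its differences were 0.89 ± 0.32 at 12 h (adjusted p = 0.0911) and 1.10 ± 0.32 between 24 h and 12 h (adjusted p = 0.121). Ntn1, the ligand netrin-1, had levels of 4.70, 5.10, 5.36, 4.95 and 5.61 in undifferentiated cells, 5.20, 4.82, 5.51, 5.52 and 4.62 at 12 h, and 4.78, 4.79, 4.95, 4.54 and 3.91 at 24 h. The 24 h arrays overlapped the undifferentiated ones, and the difference of -0.55 ± 0.23 did not pass (adjusted p = 0.0752).

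For Slits and their receptors 1 gene of each family could be tested and neither was called. Slit2, a secreted repellent, differed by -0.13 ± 0.24 at 24 h (95% interval from -0.64 to 0.38). Robo1, a receptor for Slits, had levels of 3.14, 3.25, 3.44, 3.34 and 3.27 in undifferentiated cells, 4.19, 3.56, 3.07, 2.73 and 3.26 at 12 h, and 3.53, 2.58, 2.82, 2.85 and 3.06 at 24 h. It was close to constant in undifferentiated cells and spread in the later groups, with a difference of -0.32 ± 0.23 at 24 h (95% interval from -0.81 to 0.16).

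The 30 members below the testing level had group means from -1.28 to 0.67 and single values from -1.51 to 1.50. They were Sema3b, Sema3c, Sema3e, Sema3f, Sema4f, Sema6a, Sema6b and Sema7a among the semaphorins, Plxna1 among the plexins, Nrp2 of the neuropilins, and Efna1, Efna2, Efna3 and Efna5 of the ephrins. Of the Eph receptors they were Epha1, Epha2, Epha3, Epha6, Epha7, Epha8 and Ephb4. The others were Ntn3, Ntn4, Ntng1, Ntng2, Unc5b, Slit1, Slit3, Robo3 and Robo4. Low signal on this array does not show that a gene is off, and a member that passed may have done so through the group where it is high.

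Deviations from the group means were correlated across groups for arrays of 1 title code suffix (median 0.327 over 25 pairs, against -0.164 over 50 other pairs). Such deviations cancel within a group, so the negative value is tied to the positive one and adds no separate evidence. Within a group, arrays of 1 suffix were not always the closest. The differences were also taken within each suffix. The 9 genes that rose at 24 h had differences above 0 within A, B and C alike. For Unc5c these were 1.65, 2.10 and 2.75, for Plxnb3 1.57, 1.69 and 3.57, and for Epha5 2.04, 1.60 and 1.55. Among the genes that fell, Sema4b had -1.29, -1.40 and -1.0 and Sema3a had -0.19, -0.95 and -1.0. Efna4 was the exception, with 0.042 within A against -0.68 and -0.84 within B and C. At 12 h Nrp1 had 1.15, 0.62 and 0.57. These genes were called over the same arrays, and a suffix gives at most 2 arrays a group, so the values carry no test. Without the 4 arrays of suffix C, Sema4a, Sema4d, Sema5a and Efna4 were no longer called at 24 h (adjusted p = 0.0937, 0.0562, 0.181 and 0.230). Their differences were then 0.70, 0.79, 0.61 and -0.40, against 0.68, 0.96, 0.68 and -0.56 over all arrays. With the suffix as a block all 14 calls were kept, and the members called became 3 higher and 0 lower at 12 h, 12 higher and 5 lower at 24 h, and 0 higher and 2 lower between the times. In the same order, the counts over all tested genes became 632 and 844, 1434 and 1874, and 40 and 162. Without the block they were 261 and 361, 1003 and 1533, and 5 and 28.

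**Figure D3:**
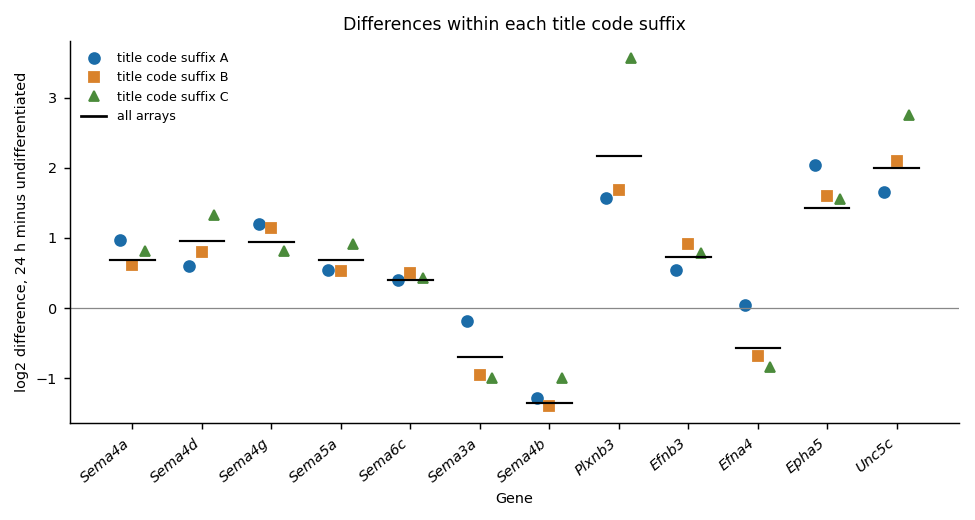
Log2 difference between 24 h and undifferentiated cells for the 12 guidance genes called at 24 h (x axis), with a point for each title code suffix and a line for the difference over all arrays. Points lie on the same side of 0 as the line for every gene but Efna4, whose suffix A point is at 0.042, and Plxnb3 has the widest range, 1.57 to 3.57.

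Several called genes have other probe sets, which read other stretches of the transcript. At 12 h the others of Nrp1 differed by 0.57 and 0.66 (adjusted p = 0.193 and 0.112), below the 0.82 of the one used. They differed by -0.16 and -0.0062 at 24 h, where the one used differed by 0.20. At 24 h the other probe set of Epha5 differed by 0.54 (adjusted p = 0.0760) and another of Sema3a by -0.57 (adjusted p = 0.0332). The remaining ones lay below the testing level. Among them the difference was 1.02 for Unc5c, 0.37 for Sema4a, -0.38 for Sema4b and -0.35 for Sema3a, the same sign as the probe set used. Those of Sema4d were at 0.010 and 0.51, that of Sema5a at 0.027, and those of Sema6c at -0.093 and -0.067, on the other side of 0 from the probe set used. With the mean of all probe sets, Sema6c (adjusted p = 0.233), Sema5a (0.0800) and Sema4a (0.0687) were no longer called at 24 h.

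**Figure D4:**
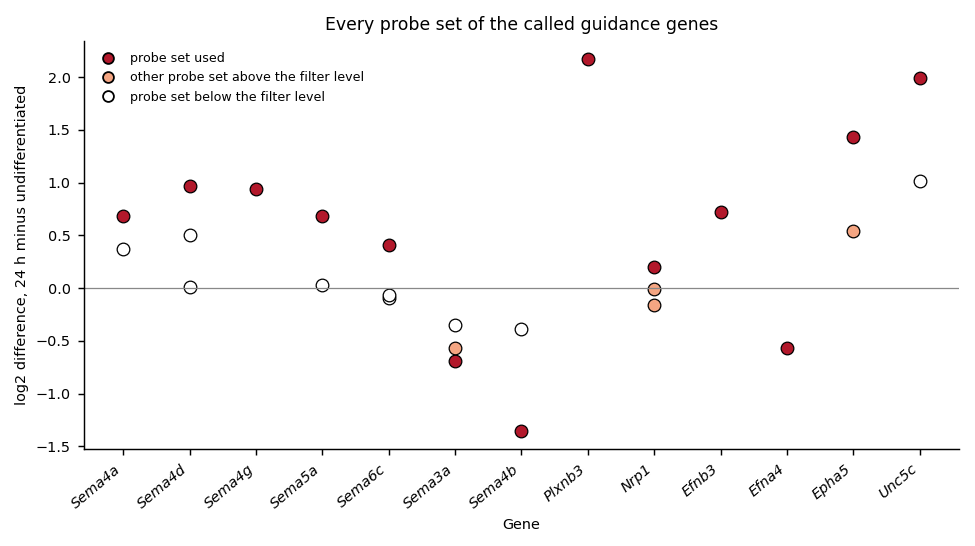
Log2 difference between 24 h and undifferentiated cells for every probe set of the 13 called guidance genes (x axis), with filled red for the probe set used, light red for another above the testing level and open circles for those below it. The probe sets of Unc5c, Epha5, Sema3a, Sema4a and Sema4b lie on 1 side of 0, and the open circles of Sema6c lie on the other side from its filled point. For Nrp1, which was called at 12 h and not at 24 h, the probe set used is at 0.20 and the others at -0.16 and -0.0062.

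Genes that work with these ligands and receptors were read from 4 lists. Of 15 tested guidance receptors and ligands outside the families above, 6 rose and 1 fell at 24 h and 2 rose at 12 h, with a median difference of 0.32 at 24 h. Ptprd, a receptor tyrosine phosphatase, averaged 4.76 at 24 h and 2.53 in undifferentiated cells (2.23 ± 0.44 SE, adjusted p = 0.00176). Cxcr4, the receptor for the chemokine Cxcl12, averaged 1.94 and 0.40 (1.55 ± 0.27, adjusted p = 0.000916), and it had risen by 1.06 ± 0.27 at 12 h already (adjusted p = 0.0290). Ptprf, a related phosphatase, rose by 0.64 ± 0.18 at 12 h (adjusted p = 0.0363). Chl1, an adhesion molecule that can act with neuropilins, averaged 0.30 at 24 h and 1.40 in undifferentiated cells (-1.10 ± 0.20, adjusted p = 0.000993). Between 24 h and 12 h, limma called 0 of the 15 higher (3 at an unadjusted p under 0.05) and 2 fell, beside 0.354% of all tested genes lower. These were Nrcam, an adhesion molecule that acts with neuropilins (-0.81 ± 0.15, adjusted p = 0.0377), and Chl1 (-0.96 ± 0.20, adjusted p = 0.0476), the first named after its values were seen. In the other 3 lists, with 62 tested genes, limma called 0 in that comparison, and 10 were higher and 8 lower at an unadjusted p under 0.05. Of all 7909 tested genes, 369 and 819 were. Dcc, the attractive netrin receptor, was below the testing level.

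Of 22 tested genes of semaphorin and plexin signalling, 7 rose and 1 fell at 24 h and 3 rose at 12 h, with medians of 0.30 and 0.14. Rnd3, an atypical small GTPase that binds plexins, rose by 2.27 ± 0.28 at 24 h (adjusted p = 0.000102) and by 1.27 ± 0.28 at 12 h (0.0153). The collapsin response mediators Dpysl3 and Dpysl4, which relay semaphorin signals to the cytoskeleton, rose by 1.92 ± 0.29 and 1.58 ± 0.25 at 24 h (adjusted p = 0.000376 and 0.000529), and Dpysl3 by 1.20 ± 0.29 at 12 h (0.0236). Arhgef12, a guanine nucleotide exchange factor that binds B-type plexins, rose by 0.70 ± 0.19 at 12 h (adjusted p = 0.0319).

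Of 19 tested genes of Eph and ephrin signalling, 6 rose and 5 fell at 24 h and 2 rose at 12 h, with a median of 0.016 at 24 h. Vav3, a Rac exchange factor recruited by Eph receptors, averaged 2.63 at 24 h and 5.21 in undifferentiated cells (-2.59 ± 0.37, adjusted p = 0.000273). Chn2, a Rac GTPase-activating protein, averaged 5.54 and 3.44 (2.10 ± 0.33, adjusted p = 0.000508). Grip1, a scaffold that binds B-type ephrins, fell by 0.91 on the log2 scale (SE 0.12, adjusted p = 0.000190). At 12 h Tiam2 and Pick1, an exchange factor and a scaffold, rose by 0.65 ± 0.17 and 0.46 ± 0.14 (adjusted p = 0.0291 and 0.0477).

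Of 22 tested genes of netrin, Slit and Robo signalling, 6 rose and 3 fell at 24 h and 1 rose and 1 fell at 12 h, with a median of 0.081 at 24 h. The GTPase-activating proteins that bind Robo receptors went both ways. Srgap2 fell at 12 h and 24 h (-0.85 ± 0.20 and -1.35 ± 0.20, adjusted p = 0.0202 and 0.000314), whereas Srgap3 rose at both (0.67 ± 0.15 and 0.88 ± 0.15, adjusted p = 0.0182 and 0.000810). Pak3, a kinase downstream of Rac, rose by 1.10 ± 0.26 at 24 h (adjusted p = 0.00549). Beside all lists stand the medians of -0.060 at 24 h and 0.0045 at 12 h over all tested genes, and the 12.7% and 19.4% of genes called higher and lower at 24 h.

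Markers of several cell types were also called at 24 h, where 12.7% of all tested genes were called higher and 19.4% lower. Of 11 tested astrocyte markers 7 rose and 1 fell, and their mean level was 6.38 to 7.16 at 24 h and 4.86 to 6.08 in undifferentiated cells. Of 8 tested neuronal markers 3 rose, and the median log2 difference of the list was 0.037. Their mean level was 1.72 to 2.58 at 24 h and 1.55 to 2.13 in undifferentiated cells, ranges that overlap. Both tested ependymal markers rose. Of 10 pericyte and fibroblast markers on the array 2 could be tested and 1 rose, and this list shares Cspg4 with the oligodendrocyte list. The part of these cell types in the differences of the guidance genes was not tested.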

How the data were processed

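Per the labels' protocols, biotin-labelled cRNA from total RNA of each sample was put on its own Affymetrix mouse array, with 22690 probe sets. The submitters' processing notes name MAS5, and no source used here gives its version, settings or scaling. The deposited values were read as log10 because the slope on log10 spike-in concentration was 1.07 ± 0.0655 (SD, 15 arrays), and they were multiplied by 3.32 to give log2 values, with no further normalisation. Array medians ran from 0.287 to 0.453 on the log10 scale. Gene names came from the platform annotation, and probe sets with exactly 1 gene were used (20380 of 22626 that are not controls; 691 had several and 1555 none). The probe set with the highest mean stood for its gene.

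The 15 arrays were fitted together in limma 3.58.1 under R 4.3.3, with group means, trended variances and Benjamini-Hochberg adjustment over 7909 genes, and the procedure was tested on simulated data. Errors beside differences are standard errors. A fold is 2 to the power of the log2 difference, and MAS5 levels of different probe sets were not compared. The members, lists, alternatives and naming rule were chosen with earlier results of these data known. Named were the members called in any comparison, with the others as values, up to 3 called genes of each list and time, and marker genes. Of 59 genes with the spelling, Unc50 was left out, and Ephx1, Ephx2 and Slitrk1 lay outside it.

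Deviations from the group means correlated between arrays of different groups that share a title code suffix (median 0.327, 25 pairs). The suffix was therefore used as a replicate block beside the fit without it. The median of -0.164 for 50 other pairs is tied to the first, since deviations cancel within a group. The labels do not say what a suffix stands for. Alternatives covered normalisation, filter, probe sets, variance model, label source, actin ratio and arrays left out. Promoter windows came from RefSeq (GRCm38.p6) and matched 51 members. Motif counts and tests of ratios used Python 3.11.15 and scipy 1.17.1.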

Additional observations from a re-analysis of the deposited data

Results flagged for a closer look

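In 5 of 84 groups of 5 arrays, each a tested guidance gene at a time, the highest or lowest array stood far from the others by Dixon's criterion, and chance gives about 1 in 20. In 12 h replicate 1, Epha4 was at 2.10 on the log2 scale against 0.775 to 1.14 in the other 12 h arrays, Ephb3 at 3.34 against 1.94 to 2.21, and Slit2 at 2.02 against 0.827 to 1.09. Plxna2 was at 0.793 in 12 h replicate 5, against 1.70 to 1.90 in the others, and Ephb6 was at 0.0841 in 24 h replicate 5, against 0.558 to 0.679. In the fit of all arrays without a block none of these genes was called in a comparison, and with the block Epha4 was called higher and Plxna2 lower at 24 h. At 24 h Ephb3 was called lower without 12 h replicate 1 and in the fit of only the 2 groups compared, and Plxna2 was called lower without 12 h replicate 5. Plxna2 was also called lower without 24 h replicate 2, without undifferentiated replicate 5 and with the code runs as a random block. Its adjusted p with all arrays was 0.0564 in limma. Sema3a differed between the times, with 24 h below 12 h by a log2 difference of -0.90 (limma adjusted p = 0.0378).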

How the results depend on the processing

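The 14 calls were kept under quantile normalisation, a pseudocount of 1, robust or untrended variances, the replicate block and the random block of code runs. The members called higher at 12 h (1 in the text) were 6 without 12 h replicates 3 and 4, 3 with the replicate block, 4 with the code runs as a random block, and 0 with the actin ratio, with the file codes or without suffix C. Those called lower at 12 h (0) were 1 without 12 h replicates 3 and 4, beside 1168 of all tested genes, against 361. Those higher at 24 h (9) were 0 with the actin ratio or the file codes, and 2 of 9 fitted members under the stricter filter (60th percentile). Those lower at 24 h (3) were 0 with the actin ratio, the file codes or the stricter filter, 8 with no filter, 5 with the replicate block and 6 with the code runs. Those higher between 24 h and 12 h (0) were 1 with the code runs. Those lower (1) were 2 with either block, and 0 with 12 h replicates 3 and 4 averaged or left out, the actin ratio, the file codes, the mean of all probe sets, median centring, only the groups compared, or the stricter filter. Over all tested genes, 261 were higher at 12 h in the text's fit. They were 752 without 12 h replicates 3 and 4, 632 with the replicate block, 633 with the code runs and 35 without suffix C. At 24 h, 1003 were higher and 1533 lower, against 1434 and 1874 with the replicate block and 1332 and 1977 with the code runs. Between the times 28 were lower, against 162 and 186 with these blocks, and 5 were higher, against 49 with the code runs. Lower genes numbered 1 with 12 h replicates 3 and 4 averaged or left out, 1 with the actin ratio and 0 with the file codes. There were 16 with the mean of all probe sets, 7 with median centring and 2 with only the groups compared. Under the stricter filter 25 were lower between the times, and 759 were higher and 1114 lower at 24 h. Sema3a was not among the members fitted there. With the actin ratio, 8 members were higher and 1 lower at 24 h at an unadjusted p under 0.05. Of all 7909 tested genes, 1156 and 758 were at that unadjusted p, and 8 and 5 were called at the adjusted p. Of the 12 differences called at 24 h, the actin ratio made Efna4, Sema4b, Sema4d and Sema5a more than 1.5 times smaller, and those of Unc5c, Epha5, Sema4g, Sema4a and Sema6c were larger. With the file codes there were 0 members at that unadjusted p in each comparison and direction, beside 0 to 105 of all tested genes. The cause of these changes was not tested, except that the stricter filter fits fewer genes.

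With single arrays left out, the counts ran from 1 to 2 (higher at 12 h), 0 to 0 (lower), 7 to 9 and 2 to 4 (24 h), and 0 to 3 and 0 to 2 (24 h against 12 h). Over all tested genes, those at 12 h ran from 69 to 356 higher and from 103 to 649 lower. Those at 24 h ran from 776 to 1110 and from 1211 to 1694. Between the times they ran from 0 to 123 and from 1 to 239, both highest without 12 h replicate 5. The 3 and 2 members came from that same fit. Reversed values were 0.042 for Efna4 within suffix A, -0.093 and -0.067 for other probe sets of Sema6c (an alternative chosen after seeing the data), and, by file codes, -0.048 for Efnb3, -0.28 for Epha5, -0.16 for Sema4a and -0.060 for Sema6c. Quantile normalisation and median centring moved the median of all tested genes at 24 h to 0.044 and 0.083, against -0.060, and the genes called to 1582 higher and 1316 lower, and 1419 and 1112, against 1003 and 1533. Members called at 24 h were then 11 higher and 4 lower, and 11 and 3, with Efna4 lost under centring and Plxna3 and Plxnc1 higher and Plxna2 lower under both. Low signal limits the 30 untested members.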

Other observations

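With no filter on low values, 6 further guidance genes were called at 24 h, and Sema5a was no longer called (adjusted p = 0.0514). In all 9 of 58 members were higher (15.5%) and 8 lower (13.8%), against 8.75% and 13.7% of 12393 genes. Epha2, an Eph receptor for A-type ephrins, averaged -0.23 at 24 h and 0.67 in undifferentiated cells (-0.90 ± 0.27 SE, adjusted p = 0.0259). Efna3 averaged 0.26 and 0.61 (-0.35 ± 0.083, adjusted p = 0.00727), Sema3c -0.60 and -0.31 (-0.29 ± 0.063, 0.00462), Slit1 -0.23 and 0.046 (-0.28 ± 0.088, 0.0311) and Efna5 -0.73 and -0.58 (-0.15 ± 0.050, 0.0414). Epha8 averaged 0.45 and 0.14 (0.31 ± 0.093, adjusted p = 0.0229). All 6 had a mean over the arrays below the testing level.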
